A study of Mus musculus with 8 samples.

Results

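The galectin family of the mouse testis was described through 9 genes, taken by symbol from the 57690 rows of a deposited expression table. They are 7 galectins (Lgals1, Lgals2, Lgals3, Lgals4, Lgals8, Lgals9 and Lgals12), the galectin-like gene Lgalsl, and Lgals3bp, whose secreted product binds galectins without being one. No symbol among them had more than 1 row. Lgalsl was chosen by its low TPM in the anti-PD-L1 libraries of these same data, so its group difference is given as a description with no test. The other 8 were included by family name, and the question was whether they showed the same difference. Bulk RNA came from testes of C57BL/6 mice aged 8 weeks. Mice of the treated group had received 2 intraperitoneal injections of 200 µg of anti-PD-L1, which blocks a surface ligand that restrains T cells. Control mice had received the same number and mass of an IgG2b isotype antibody, and tissue was collected 7 days later. Each group held 4 libraries, and the labels leave unsaid whether each is a separate animal. The p-values therefore cover only the spread between libraries, which may be technical.

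Galectins are small lectins that bind beta-galactosides, mostly the lactosamine units of branched glycans on cell surface and secreted glycoproteins. Some are released from cells and cross-link receptors of T cells and macrophages, and others act inside cells, where they mark damaged vesicles by binding glycans that are normally hidden in the lumen. In the testis, the protein of Lgals1 is known from Sertoli cells and other somatic cells, and that of Lgals3 from macrophages and Sertoli cells. Lgalsl encodes the galectin-related protein, which has the galectin fold but lacks residues that galectins use to hold sugar.

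Lgalsl and the 7 galectins share a domain. The protein domain column of the deposited table gives 12 genes a galactoside-binding lectin domain, 8 of them Lgalsl and the 7 galectins. Lgals3bp is not among the 12 and is listed with scavenger receptor and BACK domains instead. Of the 4 others with the domain, Grifin and Gm5065 were listed at 0 TPM in every library. Lgals7 had a mean of 0.614 TPM. The last, Gm49486, spans the Lgals1 pseudogene Lgals1-ps2 on chromosome 15 (pseudogene at 79255574 to 79256092 in mm10), and varied from 0.25 to 6.84 TPM. Lgalsl lies on the minus strand of chromosome 11 (20823576 to 20831056 in mm10, GENCODE release M21) and overlaps no other annotated gene. Lgals3bp (118392751 to 118402092) and Lgals9 (78962974 to 78984946) lie on the minus strand of the same chromosome, far from Lgalsl. Some others lie close together. Lgals1 (chromosome 15, 78926725 to 78930465, plus strand) is near Lgals2. Lgals4 (chromosome 7, 28833854 to 28841708, plus strand) is near Lgals7 (28863853 to 28866284). Lgals8 (chromosome 13, 12439415 to 12464944, minus strand) shares 875 bases with Heatr1 on the opposite strand. Heatr1 had means of 25.1 TPM in IgG and 33.9 TPM in anti-PD-L1 libraries, and its part in the level of Lgals8 was not tested. Lgals2 (chromosome 15, 78850860 to 78855529, minus strand) shares 38 bases with Cdc42ep1, also on the opposite strand (means of 1.33 and 1.13 TPM). Whether the counting used strand is not given in the sources used here, so reads in those shared stretches cannot be assigned with certainty.

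The upstream regions of Lgalsl and Lgals8 are shown. Lgalsl is the member chosen for its low TPM in the anti-PD-L1 libraries, and Lgals8 is the most abundant member, whose groups overlapped. The Lgals8 start used lies inside the longer GENCODE gene. Each is the 250 bases before a RefSeq start in GRCm38.p6, 5′ to 3′ on the gene's minus strand, at chr11:20831109-20831358 for Lgalsl and chr13:12461739-12461988 for Lgals8. Capitals mark CCAAT boxes (CCAAT, or ATTGG on the other strand) and GC boxes (GGGCGG, or CCGCCC on the other strand).
Lgalsl: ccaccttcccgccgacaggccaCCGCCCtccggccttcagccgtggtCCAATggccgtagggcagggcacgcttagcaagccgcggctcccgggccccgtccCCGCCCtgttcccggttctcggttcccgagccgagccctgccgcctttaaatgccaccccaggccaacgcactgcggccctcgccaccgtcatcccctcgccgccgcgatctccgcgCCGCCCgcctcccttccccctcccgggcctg
Lgals8: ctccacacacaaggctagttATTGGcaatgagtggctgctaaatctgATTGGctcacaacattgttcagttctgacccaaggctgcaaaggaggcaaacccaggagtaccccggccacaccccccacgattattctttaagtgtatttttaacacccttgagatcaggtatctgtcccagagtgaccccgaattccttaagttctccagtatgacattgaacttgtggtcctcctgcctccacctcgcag
The Lgalsl window held 1 CCAAT box and 3 GC boxes, and its GC content of 74.4% was above that of 95.4% of the 32851 windows of the same length in the RefSeq table. The Lgals8 window held 2 CCAAT boxes and no GC box, with a GC content of 49.2%. A CCAAT box was present in 33.8% of all windows and a GC box in 32.7%. Of the 9 genes 7 had an entry in that table, and the other 5 windows had GC contents from 50.8% (Lgals2) to 66% (Lgals3). The Lgals3 window also lies inside its GENCODE gene, and those of Lgals3bp and Lgals9 lie partly inside theirs. A TATA box (TATAAA, either strand, 12.4% of all windows) and a cAMP response element (TGACGTCA, 1.55%) were searched on both strands and occurred in none of the 7. These matches describe letters only and do not show that a factor binds.

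Values are in TPM, a transcript abundance corrected for the length of the gene and the size of the library. Levels of different genes can therefore be set side by side, and the read depth is unknown. Lgals8 was the most abundant family member in all 8 libraries and Lgals1 the next, and together they made up 86.5% to 94.8% of the summed TPM of the galectins and Lgalsl. The products of these genes differ in build: LGALS8 carries tandem sugar-binding domains, while LGALS1 works as a dimer of a single-domain protein. In IgG libraries the order by median went on with Lgalsl (10.1 TPM), Lgals3bp (8.04), Lgals3 (within 3.87 to 4.01), Lgals9 (2.65), Lgals4 (2.06), Lgals2 (1.40) and Lgals12 (0.04). The ranges of Lgalsl and Lgals3bp overlapped there, as did those of Lgals9 with Lgals4 and Lgals4 with Lgals2, while the remaining neighbours in the order were apart. In anti-PD-L1 libraries Lgalsl had a median of 2.10 TPM and stood between Lgals4 (2.12) and Lgals2 (1.10), and its range overlapped those of both. The ranges of Lgals3 and Lgals9, and of Lgals9 and Lgals4, also overlapped there. The other 8 genes kept their order by median between the groups. Within single libraries Lgalsl ranked 3, 3, 4 and 3 among the 9 genes in IgG replicates 1 to 4 and 7, 7, 4 and 6 in anti-PD-L1 replicates 1 to 4.

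**Figure D1:**
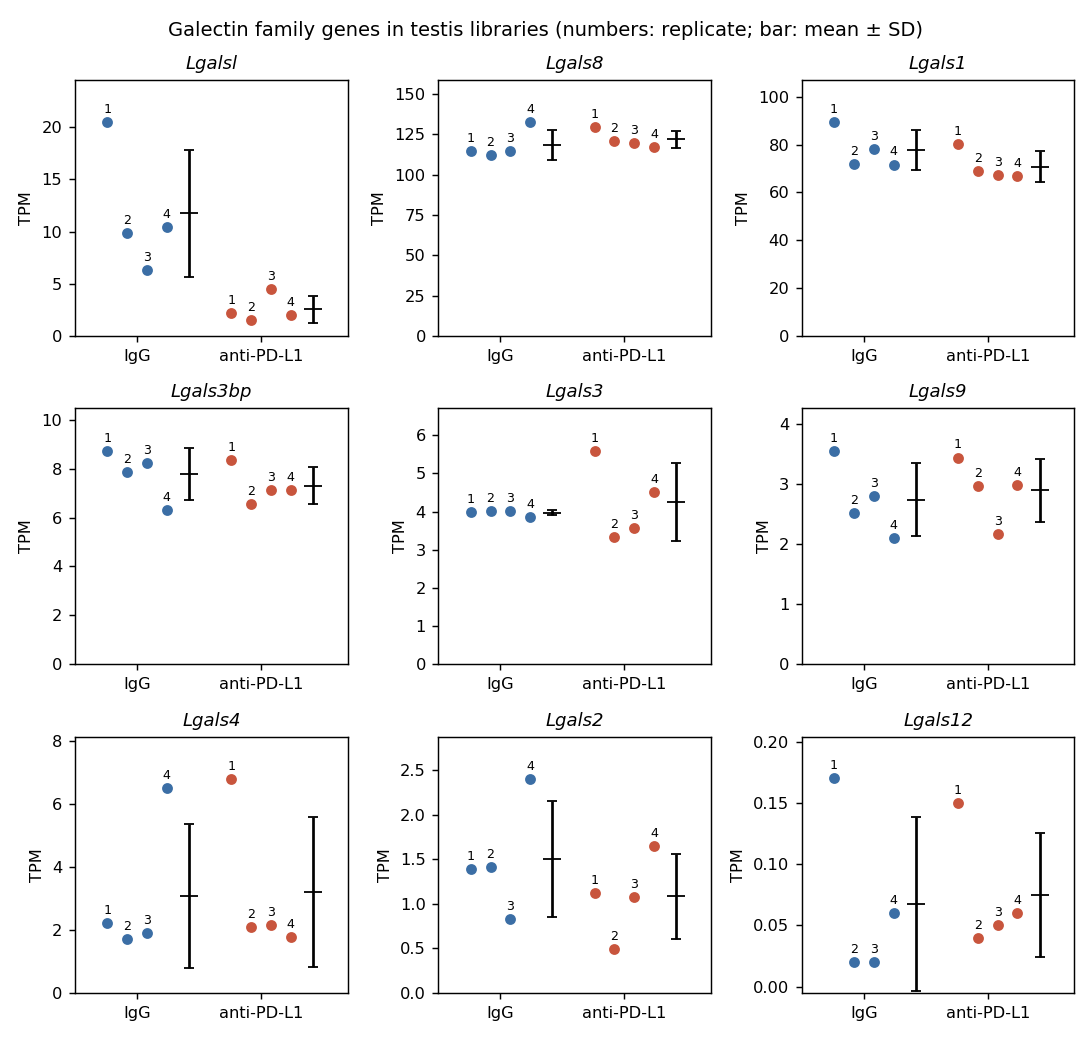
TPM of each of the 9 genes (vertical axes, one scale per panel) in the IgG (blue) and anti-PD-L1 (red) libraries, with replicate numbers above the points and the mean ± SD (n = 4) beside them. Lgalsl has no overlap between the groups (6.31 to 20.45 against 1.49 to 4.48 TPM), while the groups overlap in the other 8 panels.

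Lgalsl was at 20.45, 9.82, 6.31 and 10.4 TPM in IgG replicates 1 to 4 and at 2.17, 1.49, 4.48 and 2.04 TPM in anti-PD-L1 replicates 1 to 4. All 4 treated libraries thus lay below all 4 controls, with anti-PD-L1 replicate 3 closest to the lowest control. The group means were 11.7 ± 6.08 and 2.54 ± 1.32 TPM (SD, n = 4), a ratio of 4.61. The difference in log2(TPM + 1) was -1.80 (SE 0.34), a scale that understates changes of low genes. These values chose the gene, so they are no evidence of their own. The filter of 1 TPM on the mean kept 20343 genes. Of these, 24 had a lower difference than Lgalsl, and 1.23% had all anti-PD-L1 libraries below all IgG libraries. No gene passed a Benjamini-Hochberg adjusted p of 0.05 in the limma fit over all genes (0% called, smallest adjusted p 0.0738), and 1063 genes, 5.23%, had an unadjusted p under 0.05 (2.22% lower and 3.0% higher). Of those 1063, 57.5% were higher, a share that was 46.8% after quantile normalization and 46.6% with TMM rescaling. In bulk RNA, fewer cells that express a gene and less of its RNA per cell cannot be told apart.

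Libraries of the same group also differed widely in Lgalsl. Its within-group SD on the log2 scale was 0.57, larger than that of 91.2% of tested genes. Without IgG replicate 1, the highest library, the group difference was -1.51. Over all 17 alternatives it ranged from -2.15, with a pseudocount of 0.1 TPM, to that value. The share of Lgalsl in the summed TPM of galectins and Lgalsl was 3.02% to 8.68% in IgG libraries and 0.744% to 2.24% in anti-PD-L1 libraries. The 7 galectins without Lgalsl summed to between 193.9 and 218.9 TPM in IgG libraries and to between 194.9 and 227.1 TPM in anti-PD-L1 libraries, ranges that overlap.

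None of the other family members passed the test between the groups. Of the other 8 genes, 7 reached a mean of 1 TPM and were tested, and 4 of them were higher and 3 lower after anti-PD-L1, with a median log2 difference of 0.04 beside 0.026 over all tested genes. None of the 7 passed an adjusted p of 0.05, where 0% of all genes did, and none had an unadjusted p under 0.05 (smallest 0.17 in limma). The adjusted p was 0.999 for each of the 7 (limma, Benjamini-Hochberg). The groups overlapped in all 8 genes, as they did in all but 2.99% of tested genes. For the 4 members with room to be that much lower on this scale (Lgals1, Lgals3, Lgals3bp and Lgals8), the lowest bound of a 95% confidence interval was -0.35, beside the -1.80 by which Lgalsl was chosen. For the 3 others the scale itself limits the comparison. Lgals2 had a mean log2(TPM + 1) of 1.29 in IgG libraries, so it could not be lower by 1.80. Lgals4 and Lgals9, both at 1.89, could be so only if nearly all of their RNA were gone. A pseudocount of 0.1 TPM leaves more room. With it, the differences of Lgals2, Lgals4 and Lgals9 were -0.45 (SE 0.43), 0.05 (SE 0.52) and 0.08 (SE 0.21), beside -2.15 for Lgalsl. The difference between Lgalsl and each galectin was not tested, since Lgalsl was chosen for its value.

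**Figure D2:**
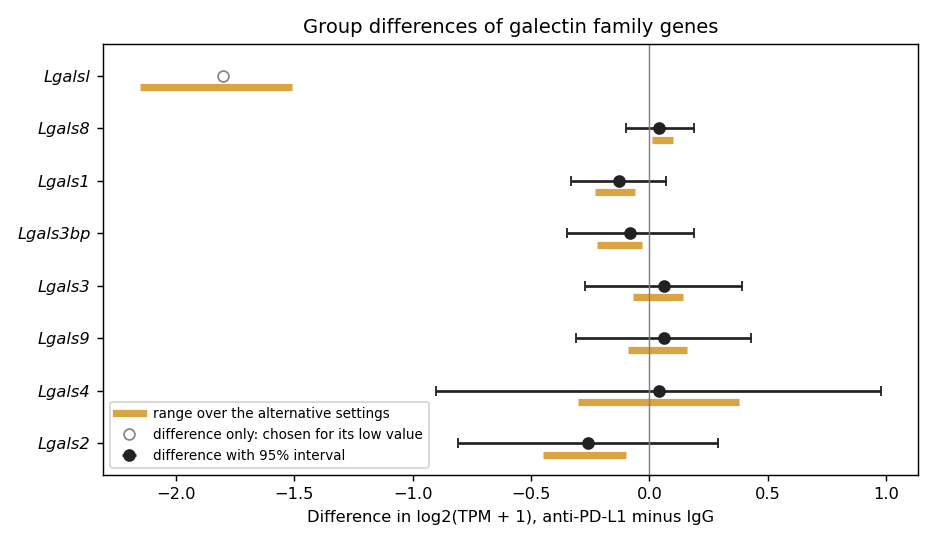
Difference in log2(TPM + 1) between anti-PD-L1 and IgG libraries (horizontal axis) for the 8 genes whose mean reached 1 TPM. Black points with bars are limma differences with 95% confidence intervals, the open point of Lgalsl has no interval because the gene was chosen for its low value, and orange bars span the alternative settings, from -2.15 to -1.51 for Lgalsl and from -0.30 to 0.38 for Lgals4, the widest of the others.

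The abundant galectins had the narrowest intervals. Lgals8, whose product binds glycans on integrins outside cells and on damaged vesicles inside them, was at 114.69, 112.31, 114.46 and 132.37 TPM in IgG replicates 1 to 4. In anti-PD-L1 replicates 1 to 4 it was at 129.76, 120.84, 119.62 and 117.21 TPM. The treated libraries thus lay inside the range of the controls, which IgG replicate 4 set at its upper end. The log2 difference was 0.04 (95% confidence interval -0.10 to 0.19), and it ran from 0.01 (anti-PD-L1 replicate 1 left out) to 0.10 (IgG replicate 4 left out). Lgals1, whose secreted product is known for restraining T cells, was at 89.23, 71.95, 78.29 and 71.65 TPM across the IgG group and at 80.23, 69.12, 67.19 and 66.73 TPM in the anti-PD-L1 libraries. In 3 of the 4 treated libraries it was below every control, and in replicate 1 it was above 3 of them. Its log2 difference was -0.13 (95% confidence interval -0.33 to 0.07). It was -0.06 without IgG replicate 1, -0.19 without anti-PD-L1 replicate 1, and -0.23 when the latter and IgG replicate 4 were both left out. Reads of Lgals1 can be shared with its processed pseudogenes, whose own rows did not exceed 1.07 TPM (Lgals1-ps2) and 0.57 TPM (Lgals1-ps1), both in anti-PD-L1 replicate 2. Gm49486, which spans Lgals1-ps2, was at 6.84 TPM in IgG replicate 4 and at 3.58 TPM in anti-PD-L1 replicate 1. Its log2 difference was -0.04 (SE 0.57). How many reads these genes share with Lgals1 was not tested.

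Lgals3 encodes the chimeric galectin with a collagen-like tail, a product of macrophages and many epithelia. It was at 3.99, 4.01, 4.01 and 3.87 TPM across the IgG group and at 5.59, 3.34, 3.56 and 4.51 TPM in the anti-PD-L1 libraries. The controls were nearly level, and the treated libraries spread to both sides of them. The log2 difference was 0.06 (95% confidence interval -0.27 to 0.39). With single libraries left out it ran from -0.06 (anti-PD-L1 replicate 1) to 0.14 (anti-PD-L1 replicate 2). It was -0.07 when anti-PD-L1 replicate 1 and IgG replicate 4 were both left out. Lgals3bp, the gene of the secreted glycoprotein that LGALS3 binds, was at 8.72, 7.85, 8.24 and 6.3 TPM across the IgG group and at 8.35, 6.54, 7.14 and 7.14 TPM in the anti-PD-L1 libraries. Its log2 difference was -0.08 (95% confidence interval -0.35 to 0.19), and neither the gene of the ligand nor that of the lectin passed the test. The difference of Lgals3bp was -0.03 without IgG replicate 1 and also when anti-PD-L1 replicate 2 was left out. It was -0.16 without IgG replicate 4, -0.14 without anti-PD-L1 replicate 1 and -0.22 with both of these dropped.

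Lgals9, a tandem-repeat galectin known as a ligand of the T cell receptor TIM-3, was at 3.55, 2.51, 2.8 and 2.1 TPM across the IgG group and at 3.44, 2.97, 2.17 and 2.99 TPM in the anti-PD-L1 libraries. The ranges nearly coincided, and the log2 difference was 0.06 (95% confidence interval -0.31 to 0.43). It was -0.02 without IgG replicate 4, -0.01 when anti-PD-L1 replicate 1 was left out, and 0.16 with either IgG replicate 1 or anti-PD-L1 replicate 3 left out. Lgals2, a small single-domain galectin of the gut, was at 1.39, 1.41, 0.83 and 2.4 TPM across the IgG group and at 1.12, 0.49, 1.08 and 1.65 TPM in the anti-PD-L1 libraries. Its log2 difference of -0.26 was the lowest among the tested galectins, but the 95% confidence interval ran from -0.81 to 0.29 and the groups overlapped. Leaving out IgG replicate 4 gave -0.10, leaving out anti-PD-L1 replicate 2 gave -0.11, leaving out IgG replicate 3 gave -0.40, and leaving out anti-PD-L1 replicate 4 gave -0.39. A pseudocount of 0.1 TPM gave -0.45. Lgals12, the galectin of fat cells that sits on lipid droplets, was at 0.17, 0.02, 0.02 and 0.06 TPM across the IgG group and at 0.15, 0.04, 0.05 and 0.06 TPM in the anti-PD-L1 libraries. At that level it was under the filter of 1 TPM and was not tested.

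Lgals4 differed between libraries rather than between groups. This tandem-repeat galectin is best known from the gut epithelium. It was at 2.23, 1.7, 1.89 and 6.49 TPM across the IgG group and at 6.77, 2.09, 2.15 and 1.78 TPM in the anti-PD-L1 libraries. A single library of each group, IgG replicate 4 and anti-PD-L1 replicate 1, stood well above the remaining 6, which lay between 1.7 and 2.23 TPM. Its log2 difference was 0.04 (95% confidence interval -0.90 to 0.98). Leaving out IgG replicate 4 gave 0.38, leaving out anti-PD-L1 replicate 1 gave -0.30, and leaving out both gave 0.03. These are the same libraries that stand apart over all genes: 21116 and 21083 genes reached 1 TPM in them, against 19494 to 19665 in the other 6. Lgals8 also had its highest values in these 2 libraries, but by a narrower margin. They held the 2 highest values of 21% of all tested genes, so Lgals4 and Lgals8 share this with many genes. The summed level of 10 duct epithelium markers (3 tested), was 53.6 and 56.6 TPM in these libraries and 45.4 to 50.3 TPM in the others. Of the most abundant of them, Epcam, a surface adhesion gene, was highest there (42.24 and 43.46 TPM), but the keratin gene Krt8 was not. Krt8 was at 6.8 TPM in IgG replicate 4, its lowest value, and at 8.37 TPM in anti-PD-L1 replicate 1. The epididymal members Lcn5 and Lcn8 were listed at 0 in every library. The part of these markers in the level of Lgals4 was not tested.

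**Figure D3:**
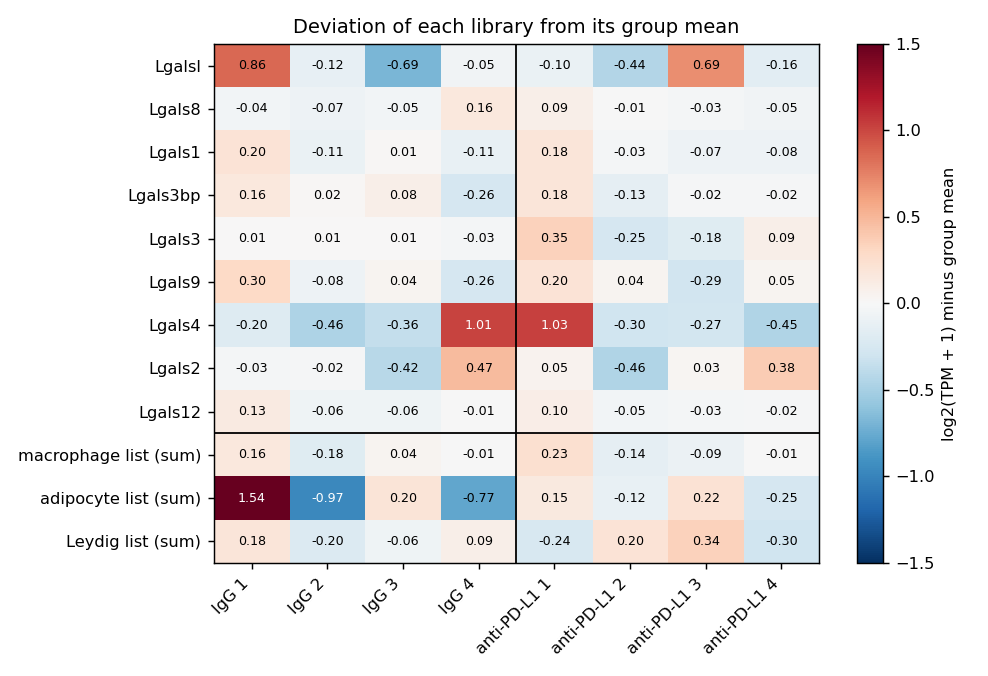
Deviation of log2(TPM + 1) from the mean of the library's own group (colour and printed value) for the 9 genes and for the summed TPM of the macrophage, adipocyte and Leydig cell lists, with IgG libraries on the left and anti-PD-L1 libraries on the right. Lgals4 stands out in replicate 4 of IgG (1.01) and replicate 1 of anti-PD-L1 (1.03), Lgalsl in replicate 1 of IgG (0.86) and replicate 3 of anti-PD-L1 (0.69), and Lgals1, Lgals3bp, Lgals9 and Lgals12 are highest in replicate 1 of both groups.

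A different set of libraries held the peaks of 4 other family members. Lgals1, Lgals3bp, Lgals9 and Lgals12 each had their 2 highest values in IgG replicate 1 and anti-PD-L1 replicate 1, which was the case for 2.99% of all tested genes. This set was picked after its values were seen, and the 4 genes share these libraries. Lgals3 was highest in anti-PD-L1 replicate 1 as well, but not in IgG replicate 1. The summed level of 12 macrophage markers, among them Lyz2 and C1qb, was likewise highest in these libraries. It was 92.6 TPM in IgG replicate 1 and 103.5 TPM in anti-PD-L1 replicate 1, and between 73.0 and 87.3 TPM in the other 6. Not every marker followed the sum. Lyz2 was highest in these libraries (27.92 and 28.17 TPM). C1qb was lower in IgG replicate 1 (17.94 TPM) than in anti-PD-L1 replicate 4 (18.41 TPM). Mrc1, named after its values were seen, had its lowest value of all libraries in IgG replicate 1 (8.7 TPM). Of those 12 markers 9 were tested (7 higher and 2 lower, median 0.124, -0.006 when anti-PD-L1 replicate 1 was dropped, 0.033 when IgG replicate 2 was, and 0 past the adjusted p), and none was listed at 0 in all libraries. Their part in the levels of the 4 genes was not tested.

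The groups overlapped in both protein-coding neighbours of Lgalsl, as they did in all but 2.99% of tested genes. The nearest protein-coding gene on one side, Aftph, which encodes a clathrin-binding trafficking protein, lies 81986 bases away and was at 34.2 ± 3.49 TPM with IgG and 36.4 ± 1.39 TPM with anti-PD-L1 (SD, n = 4). On the other side Peli1, a ubiquitin ligase gene, lies 260234 bases away, with a log2 difference of 0.16 (SE 0.13). The noncoding gene Gm12037, which lies 424 bases upstream on the same strand and was named after its value was seen, was listed at 0 in every library. Among 20342 other tested genes, the 3 with a gene symbol most like Lgalsl in their deviations from the group means over the 8 libraries were Amotl2, Lvrn and Dhx40, with Pearson r of 0.98, 0.974 and 0.963. These are the top of a large search and are a description of likeness within groups. The 3 genes had group differences of 0.01, -0.27 and -0.01 on the log2 scale, beside -1.80 for Lgalsl. Among the 7 tested family members the same r lay between -0.10 (Lgals3) and 0.33 (Lgals2).

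Several cell type lists were read beside Lgalsl. Adipocyte markers, among them Fabp4 and Adipoq, summed to 90.6, 15.1, 35.1 and 17.4 TPM in IgG replicates 1 to 4 and to 11.3 to 16 TPM across the anti-PD-L1 group. All 7 tested markers of the 10 in that list were lower in the anti-PD-L1 group, with a median log2 difference of -0.52, and 0 passed the adjusted p of 0.05. That median was -0.27 without IgG replicate 1. With a filter of 5 TPM it was -1.09, but only Fabp4 (-1.67) and Adipoq (-0.52) remained. Lgalsl, like this sum, was highest in IgG replicate 1, but it was lowest among the controls in IgG replicate 3, where the adipocyte sum was the next highest. Without IgG replicate 1 the difference of Lgalsl was -1.51, as given above. Leydig cell markers summed to between 1273.4 and 1657 TPM in IgG libraries and to between 2253.4 and 3529.1 TPM in anti-PD-L1 libraries, without overlap. Insl3, a peptide hormone gene of Leydig cells, made up most of each of these sums. It was at 751.46 to 998.2 TPM in IgG and 1609.77 to 3028.48 TPM in anti-PD-L1 libraries. The median log2 difference of the 10 markers, 5 higher and 5 lower, was 0.094. Only 2 of the 10, Insl3 and Fdx1, had all anti-PD-L1 libraries above all IgG libraries, beside 1.76% of all tested genes. Cyp17a1, a steroid synthesis gene and the most abundant marker after Insl3, differed by -0.06 (SE 0.19). With single libraries left out the median of the 10 ran from 0.008 (anti-PD-L1 replicate 4) to 0.153 (anti-PD-L1 replicate 3). Testis markers were present in every library: the sum of 10 elongating spermatid genes lay between 55857.5 and 74085.9 TPM and that of 12 Sertoli cell genes between 1497.5 and 2122.0 TPM, with overlapping groups. All 10 elongating spermatid genes were lower, with a median of -0.136 (-0.051 after quantile normalization), and 0 passed the adjusted p. The part of any of these cell types in the level of Lgalsl was not tested.

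The genes that make and carry galectin ligands were read from 4 lists of 58 genes, of which 45 were tested. None of the 45 passed an adjusted p of 0.05, beside 0% of all tested genes, and 2 had an unadjusted p under 0.05, beside 5.23%. N-glycan branching and lactosamine synthesis had 16 tested genes, 12 of them higher and 4 lower, and a median log2 difference of 0.088 beside 0.026 over all tested genes. That median was 0.042 without anti-PD-L1 replicate 1. The most abundant, Mgat4a, whose product adds a branch to N-glycans, was at 133.5 ± 14.6 TPM with IgG and 112.0 ± 19.7 TPM with anti-PD-L1 (SD, n = 4), a log2 difference of -0.26 (SE 0.12). Man2a2, a mannosidase that trims glycans before branching, differed by 0.21 (SE 0.16), and Mgat5, whose product starts the branch best known for carrying galectin ligands, by -0.14 (SE 0.13). The genes with an unadjusted p under 0.05 were Mgat2 and Mgat4b, named after their values were seen. Mgat2 was at 19.96 to 22.52 TPM in IgG and 22.65 to 25.39 TPM in anti-PD-L1 libraries. Mgat4b was at 19.53 to 22.46 TPM in IgG and 22.53 to 27.61 TPM in anti-PD-L1 libraries. In both, the treated libraries lay just above the controls, as they did in 1.76% of all tested genes. Their adjusted p was 0.935 and 0.812 (limma, Benjamini-Hochberg).

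**Figure D4:**
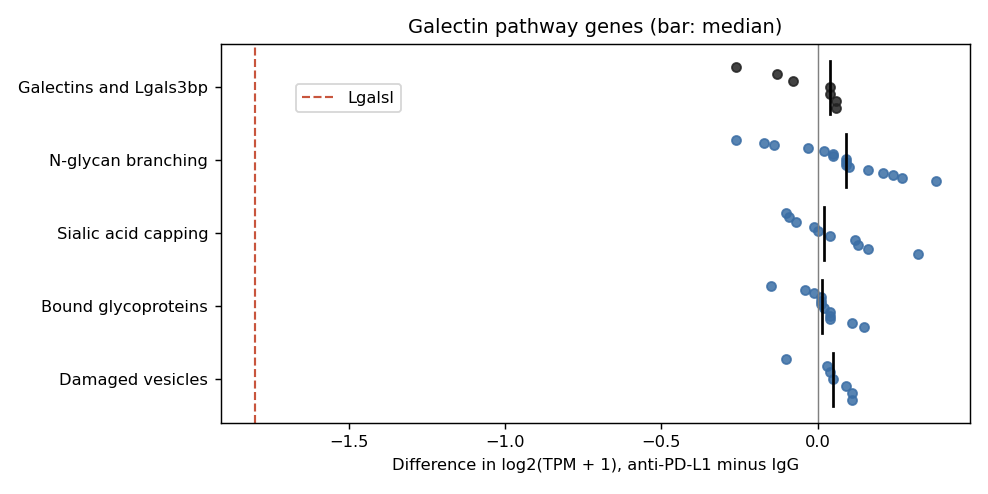
Difference in log2(TPM + 1) between anti-PD-L1 and IgG libraries (horizontal axis) for the tested genes of the family without Lgalsl and of the 4 pathway lists, 1 point per gene, with a bar at the median of each list. The points lie between -0.26 and 0.38, and the dashed line marks Lgalsl at -1.80.

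Sialic acid on terminal galactose can block binding by some galectins. That capping step was read from 10 genes, all tested, with 6 above and 4 below 0 and a median of 0.022. The median turned to -0.011 with TMM rescaling and -0.005 after quantile normalization. With single libraries left out it ran from -0.024 (IgG replicate 2) to 0.103 (IgG replicate 4), and it was also below 0 without IgG replicate 1 (-0.001) or anti-PD-L1 replicate 1 (-0.02). St3gal6 and St3gal5, sialyltransferase genes, differed by -0.07 (SE 0.11) and 0.12 (SE 0.07), and Cmas, which activates sialic acid, by 0.04 (SE 0.10). Among glycoproteins known to be bound by galectins, 12 were tested, 9 with a difference above 0 and 3 below, and the median was 0.018. It was -0.013 with TMM rescaling and ran from 0.006 (IgG replicate 2 or anti-PD-L1 replicate 4) to 0.063 (IgG replicate 4) with single libraries left out. Bsg, which encodes basigin, was at 643.6 ± 25.8 and 647.7 ± 34.2 TPM (SD, n = 4), and Lamp1, of the lysosomal membrane, at 334.9 ± 11.6 and 344.2 ± 12.9 TPM in IgG and anti-PD-L1 libraries. P4hb, a disulfide isomerase that LGALS9 binds on T cells, differed by 0.02 (SE 0.07). The other 8 genes of this list, all known from leukocyte surfaces, were under the filter and were not tested. They are Havcr2 (the gene of TIM-3), Cd44, Ptprc, Spn, Cd7, Cd2, Lag3 and Itgam, with means over all libraries from 0.106 TPM (Lag3) to 0.838 TPM (Cd2). Cd2, a T cell adhesion gene, was at 0.85, 1.04, 1.27 and 1.05 TPM in IgG replicates 1 to 4 and at 0.46, 0.75, 0.67 and 0.61 TPM in anti-PD-L1 replicates 1 to 4. Its groups did not overlap, with anti-PD-L1 below, while those of the 7 others did. Among tested genes 1.23% lay below in this way, and the share among genes under the filter was not counted. The 8 leukocyte genes were named after their values were seen. In the list of the response to damaged vesicles, 7 genes were tested, 6 above 0 and 1 below, and the median was 0.047, from 0.002 (anti-PD-L1 replicate 1) to 0.12 (IgG replicate 4) with single libraries left out. Its most abundant members Sqstm1, an autophagy receptor gene, Mtor and Map1lc3b differed by 0.03 (SE 0.06), 0.05 (SE 0.08) and -0.10 (SE 0.09). Calcoco2 and Trim16, also in this list, had means of 0.146 and 0.101 TPM, were not tested, and were likewise named after their values were seen.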

How the data were processed

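The deposited table gives TPM per gene for 8 libraries, and the authors' mean of each group, per the file headers. Tools listed in the submitters' processing notes are CASAVA 1.8, HISAT2, StringTie and RSEM, with the build mm10. The role of each, the annotation and the strand setting are not given in those sources. Total RNA was made into TruSeq libraries, per the labels' protocols. TPM keeps no depth, so none is known. Libraries were assigned to groups and replicates by their titles.

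Of 57690 genes, the 20343 whose mean reached 1 TPM were taken as log2(TPM + 1), a pseudocount of 1, and fitted with limma 3.58.1 in R 4.3.3 (intensity trend, group term, no covariate). P-values were adjusted over all tested genes by the Benjamini-Hochberg method at 0.05. The code was tested on simulated data. Summaries used Python 3.11.15. Coordinates come from GENCODE M21 (GRCm38, also called mm10), upstream sequences from RefSeq (GRCm38.p6). Members and lists were chosen with earlier results of these data known. Named genes were the 9 members, genes with the galectin domain, the 3 most abundant genes of each pathway list and the 2 most abundant of a cell type list set beside a member, the neighbours of Lgalsl, and the 3 genes most like it. Outside that rule, Mgat2, Mgat4b, Fdx1, Gm12037, Lcn5, Lcn8, Mrc1 and the Lgals1 pseudogenes were named after their values were seen. So were the 8 leukocyte genes under the filter, Calcoco2 and Trim16. The other cell type lists (peritubular myoid, endothelial, T and NK cells, spermatogonia, spermatocytes and round spermatids) had median log2 differences of -0.073, -0.089, -0.146, 0.079, 0.114 and 0.079. No gene of these passed. Alternatives were quantile normalization, a pseudocount of 0.1, a 5 TPM filter or none, TMM rescaling (trimming 30% of M and 5% of A values), array weights, no intensity trend, the replicate block, each library left out, and 2 libraries that stand apart left out together.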

Additional observations from a re-analysis of the deposited data

Results flagged for a closer look

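A library was far from the rest of its group in 4 of the 18 combinations of gene and group examined, by the gap to its nearest neighbour over the group's range (beyond Dixon's 95% critical value for 4 libraries). Chance flags about 1 in 20. Lgals4 was at 6.49 TPM in IgG replicate 4 (0.889 of the range) and at 6.77 TPM in anti-PD-L1 replicate 1 (0.926). Lgals8 was at 132.37 TPM in IgG replicate 4 (0.881). Lgals3 was at 3.87 TPM in IgG replicate 4 (0.857), although its whole range in that group ran only from 3.87 to 4.01 TPM.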

How the results depend on the processing

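Over 17 alternatives the difference of Lgalsl ran from -2.15 to -1.51. The alternatives reuse the values that chose the gene, so this range is no support for its difference. The 7 other tested members stayed short of an adjusted p of 0.05 (limma, Benjamini-Hochberg) wherever they were tested. Lgals1, Lgals2, Lgals3bp and Lgals8 kept their direction. The direction turned for Lgals3 with array quality weights (-0.02) and without both libraries that stand apart (-0.07), and for Lgals9 without both (-0.09). With single replicates left out, Lgals3 ranged from -0.06 to 0.14, Lgals9 from -0.02 to 0.16 and Lgals4 from -0.30 to 0.38. The number of genes past the threshold was 0 as designed, 1 with a pseudocount of 0.1, 5 with array quality weights, 8 without both libraries, and 0 to 15 without a single replicate, with 15 without IgG replicate 4, 3 without anti-PD-L1 replicate 4, 1 without IgG replicate 2, and 1 when anti-PD-L1 replicate 1 was dropped. The cause of these changes was not tested. Genes with an unadjusted p under 0.05 numbered 1861 without IgG replicate 4, 2009 without both libraries that stand apart and 2155 with array quality weights, beside 1063. Lgals12, not tested, differed by 0.11 with a pseudocount of 0.1 beside 0.011. In the pathway lists 0 genes passed in every alternative. Same-numbered libraries of the groups did not deviate together (r = -0.115, 0.1, 0.09 and -0.198 for numbers 1 to 4). With the replicate block 0 genes passed, 1065 had an unadjusted p under 0.05, and Lgalsl differed by -1.80 (SE 0.38). Median differences of all genes were 0.026 as designed and -0.007 with TMM rescaling.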

Other observations

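Lgals7, a galectin of stratified epithelia, was at 0.45, 0.11, 0.22 and 0.47 TPM in IgG replicates 1 to 4 and at 0.14, 0.21, 0.69 and 2.62 TPM in anti-PD-L1 replicates 1 to 4. It was under the filter and was not tested.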
